A study of Mus musculus with 12 samples.

Results

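Transcripts of 485 olfactory receptor genes were detected in mouse cortex, of 1107 genes whose symbol is Olfr followed by digits alone. A gene was counted as detected, and is called a member here, when its normalized count, summed over its transcripts, was 5 or more in at least 3 of the 6 cortices taken at 4 months. A normalized count is an estimated read count divided by a size factor of its library, and 1 read was worth 0.597 to 0.721 normalized counts in the 4-month libraries. The members therefore made up 43.8% of the Olfr genes, and they were chosen by their measured 4-month levels.

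Odorant receptors are G protein-coupled receptors of olfactory sensory neurons, and they form the largest gene family of the mouse. Each sensory neuron of the nose settles on a single receptor gene, whose signal runs through the G protein subunit encoded by *Gnal*, the cyclase encoded by *Adcy3* and the channel subunit encoded by *Cnga2*. A few family members are known to act outside the nose, in kidney, vessels, liver or sperm, and low levels of many others turn up in bulk RNA of most tissues.

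Libraries of polyA RNA came from cortices of WT mice and of *Gde2*KO mice, which lack GDE2 globally, at 4 and at 19 months of age, with 3 libraries in each of the 4 groups. GDE2 is a membrane enzyme that cuts glycosylphosphatidylinositol anchors and is encoded by *Gdpd5*. The labels number the 4-month libraries, whereas the 19-month columns carry no number and are given the letters A to C here. The study counts the 19-month RNA samples by animal within each genotype. For the 4-month libraries neither the labels nor the methods say that each is its own animal, so p-values there measure the spread between samples, which may be technical.

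*Gdpd5* was at 684, 702 and 1199 normalized counts in the WT cortices at 4 months and at 417, 585 and 403 in *Gde2*KO. At 19 months it was at 1065, 1129 and 952 in WT and at 441, 456 and 560 in *Gde2*KO, with no overlap at either age. Libraries held 46432108 to 59726331 estimated reads at 4 months and 36915433 to 44602117 in 4 of the 6 libraries at 19 months. WT library A and *Gde2*KO library A at 19 months held 6734479 and 3707941, so that 1 read was worth 4.66 and 8.29 normalized counts there. WT replicates 1 and 2 at 4 months stood apart in tissue markers. The summed level of 7 striatal markers was 5222 and 3253 normalized counts in these and 51970 in WT replicate 3, against 29177 to 71228 in *Gde2*KO. That of 7 hippocampal markers was 28353 and 24481 in these and 7865 in WT replicate 3, against 6114 to 8612 in *Gde2*KO. At 19 months the striatal markers summed to 6965, 9309 and 6480 in WT and 14022, 8612 and 19144 in *Gde2*KO, and the groups overlapped. All 7 had an unadjusted p under 0.05, against 6.91% of all genes, with 0 called by limma and a median log2 fold change of 1.004. The hippocampal markers summed to 5452, 5265 and 5179 in WT and 7353, 6484 and 6899 in *Gde2*KO, without overlap, with 3 of 7 at that p, 0 called and a median of 0.41. *Slc17a7* and *Tbr1*, which mark excitatory cortical neurons, were read in every library, from 34416 and from 1236 normalized counts upward.

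The coding sequences of the members carry the family's signature at the cytoplasmic end of the third transmembrane helix, an aspartate and an arginine followed by tyrosine or phenylalanine. Translation of the GENCODE coding sequences found it between residues 90 and 150 in 463 of the 485 members, 394 with tyrosine and 69 with phenylalanine, and the aspartate stood at residue 121 in the median member. Stretches of 30 coding bases around it are shown 5′ to 3′ for the member that differed between genotypes at 19 months and for 4 of the members of highest level, with the signature codons in capitals. Positions are in GRCm38.
Olfr149 (chr9:39702393-39702422, minus strand): atggcttatGACCGTTTTgttgccatatgc
Olfr1023 (chr2:85887153-85887182, plus strand): atggcactaGACCGTTATgtggctatttgc
Olfr648 (chr7:104180020-104180049, minus strand): atggcatttGATCGCTATgtggccatctgt
Olfr152 (chr2:87782899-87782928, plus strand): atggcctatGATCGCTATgttgccatctgc
Olfr497 (chr7:108422933-108422962, plus strand): atggcttatGATCGCTTCatggcaatctgc
All lie in coding exons of protein-coding genes. Between 22 and 25 of the 30 bases of the other 4 stretches were the same as in *Olfr149*.

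The estimated counts of the members hardly touched the models that hold coding sequence alone. Transcripts with a noncoding part beside the coding sequence carried 89.5 to 91.2% of the members' counts in the 12 libraries, and transcripts without a coding sequence carried 8.75 to 10.5%. Models made only of coding sequence carried at most 0.0475%. Of 266 members that have both a coding-only transcript and one with a noncoding part, 258 had the coding-only transcript at 0 in all 12 libraries. *Olfr1023*, *Olfr648*, *Olfr152* and *Olfr497*, shown above, were all of this kind. A read in coding sequence that both models hold fits either of them. These estimates therefore do not tell how many reads fell in coding sequence.

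Members differed from the other 622 Olfr genes in annotated structure. The longest transcript had a median of 3915 nt in the members and 2101.5 nt in the others, while the longest coding sequence had the same median of 939 nt. An untranslated part was annotated for 484 of 485 members and for 552 of 622 other genes. The share of Olfr genes that were members rose from 5 of 168 with a longest transcript under 1500 nt to 121 of 136 with 5000 nt or more. Across the 1107 genes Spearman's rho between the mean 4-month count and transcript length was 0.66, a description over genes that share libraries, and longer transcripts yield more reads at the same level.

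The members also shared more sequence with genes outside these 1107. A 31-mer, the word length used for the comparison, was counted as shared when it also occurs on either strand of a GENCODE transcript of a gene outside these 1107. The median share was 2.09% of a member's 31-mers and 0.147% for the other Olfr genes, and in the coding part the median was 0 in both. Sharing within the 1107 went the other way, with a median of 5.64% of a member's 31-mers and 8.23% for the other Olfr genes. Only 18 of 289 genes with no shared 31-mer were members, against 149 of 203 genes with more than 200. Length goes with sharing, with rho of 0.39 over the 1107 genes. Among the 26 genes of 3500 nt or more and under 5000 nt that share no 31-mer, 4 were members, and among 52 genes of that length with more than 200 shared, 47 were. How many of the reads arose from other genes was not tested. A same-strand exon of another gene overlapped 25 members and 15 other genes, and an antisense exon overlapped 10 of each. The library kit is not stated to keep strand, so reads of antisense partners cannot be told apart.

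**Figure D1:**
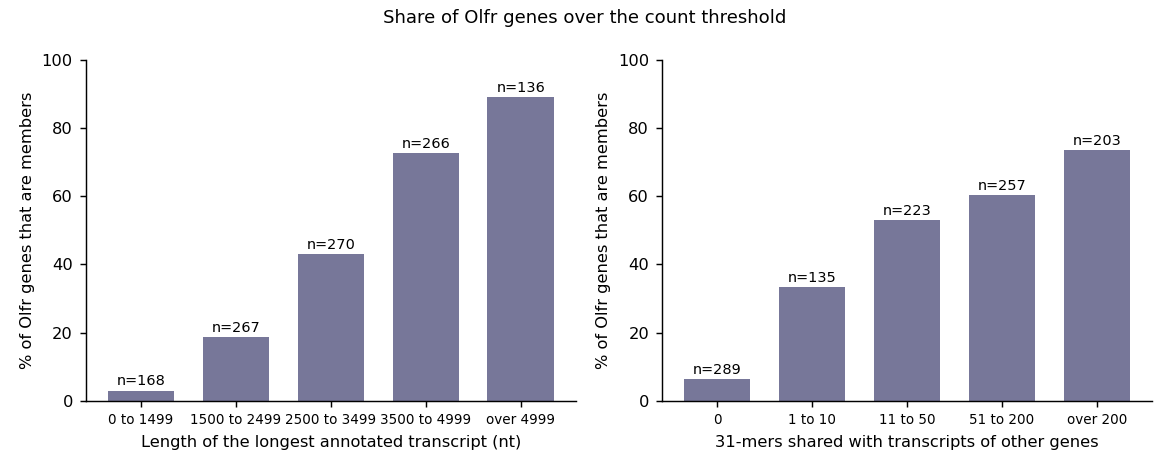
Percent of Olfr genes that were members, on the vertical axes, by length of the longest annotated transcript in nucleotides (left) and by number of 31-mers shared with transcripts of genes outside the 1107 (right). Numbers of Olfr genes stand over the bars, and the share rises from 2.98 to 89.0% with length and from 6.23 to 73.4% with sharing.

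Members lay on 17 chromosomes, with 120 of the 282 Olfr genes of chromosome 2, 105 of 240 on chromosome 7, 53 of 133 on chromosome 9 and 42 of 81 on chromosome 11. The share over the threshold was therefore between 39.8 and 51.9% in the 4 largest groups. The nearest same-strand gene upstream lay within 10 kb for 172 members, 35.5%, and for 213 other Olfr genes, 34.2%.

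Threshold neighbours differed little. By the third highest 4-month value, *Olfr460* and *Olfr732* at 5.01 and *Olfr1029* at 5.06 normalized counts were the nearest members, and *Olfr1228* at 4.84 and *Olfr317* and *Olfr430* at 4.83 were the nearest genes outside. In reads, 5 normalized counts was 6.94 to 8.37 reads at 4 months. At least 1 of the 6 4-month libraries was under 5 for 102 members, and 25 members reached it in exactly 3. The 3 members *Olfr212*, *Olfr482* and *Olfr732* reached it in no WT library and *Olfr1281* in no *Gde2*KO library, so their passing the rule rested on 1 genotype. Of the 622 other genes, 365 were at 0 in all 6 libraries.

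Most members were at very low levels. On the deposited TPM scale, which corrects for transcript length, the mean over the 12 libraries had a median of 0.296 over the members with quartiles of 0.145 and 0.630, against 11.3 for all genes tested at 4 months. Only 63 members had a mean TPM of 1 or more, 6 had 5 or more and 325 were under 0.5.

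*Olfr1033* (chr2:86020633-86045171) had the highest TPM, with 128 ± 56.0 (SD, n = 3) in WT and 109 ± 10.6 in *Gde2*KO at 4 months and 96.1 ± 36.5 and 55.9 ± 20.0 at 19 months. A short model of 316 nt, with 116 nt of coding sequence, carried 92.0% of its counts in WT at 4 months, so its TPM rests on a fragment of the receptor. In normalized counts it was at 168.6, 393.02 and 370.8 in WT and 276, 236 and 300.3 in *Gde2*KO at 4 months. At 19 months it was at 312, 268 and 158 in WT and 99.5, 166 and 190 in *Gde2*KO, and the groups overlapped at both ages.

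*Olfr1023* (chr2:85885640-85891213) had by far the most reads. Its normalized counts at 4 months were 2624, 2767 and 2975 in WT and 2973, 2848 and 3952 in *Gde2*KO. At 19 months they were 3160, 2898 and 2418 in WT and 2321, 2516 and 2860 in *Gde2*KO, and the groups overlapped at both ages. All its counts lay on a spliced transcript of 4740 nt. *Olfr1023* and *Olfr648* together held 14.0 to 24.6% of the members' summed count.

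*Olfr648* (chr7:104177598-104183392) was at 947, 917 and 1039 in WT and 754, 1029 and 835 in *Gde2*KO at 4 months. At 19 months WT library C stood alone at 419, against 1728 and 1650 in the other WT libraries and 1084, 1453 and 1557 in *Gde2*KO. Its log2 fold change at 19 months of 0.35 (SE 0.48) became −0.32 without that library. *Tmem181b-ps*, a pseudogene that shares 101 31-mers with it, had its lowest value in the same library, at 10584, 10351 and 2434 in WT and 6471, 8570 and 8770 in *Gde2*KO. Whether reads of one were counted for the other was not tested.

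The other members of the 10 highest in TPM were *Olfr539* (mean 10.7), *Olfr152* (8.42), *Olfr287* (7.21), *Olfr1348* (4.89), *Olfr1385* (4.27), *Olfr497* (4.10) and *Olfr57* (2.97). For *Olfr1385*, a spliced transcript without coding sequence carried 92.9% of the counts in WT at 4 months, and for *Olfr1348* a model of 468 nt carried 76.3%. *Olfr287* shares 978 of its 31-mers with the overlapping same-strand gene *Gm44579*, and *Olfr539* shares 582 with the antisense pseudogene *Olfr540-ps1*. Upstream neighbours on the same strand within 10 kb were receptor genes or receptor pseudogenes for *Olfr648*, *Olfr539*, *Olfr287*, *Olfr1348*, *Olfr497* and *Olfr57*.

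**Figure D2:**
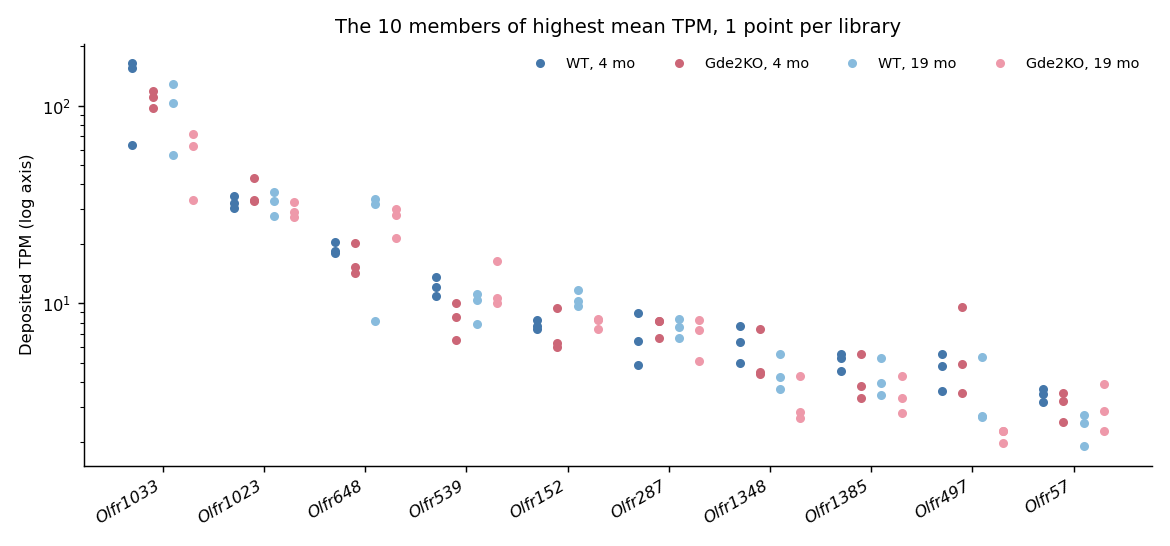
Deposited TPM on a log axis for the 10 members of highest mean TPM, with 1 point for each of the 12 libraries coloured by group. *Olfr1033* lies highest with a mean of 97.2, and *Olfr648* has a single low WT library at 19 months.

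Receptors known to act outside the nose were at low levels. *Olfr78*, a receptor for short-chain fatty acids in kidney and carotid body, was at 20.3, 35.9 and 39.5 in WT and 23.5, 52.0 and 43.7 in *Gde2*KO at 4 months. At 19 months it was at 73.1, 93.3 and 85.0 in WT and 75.3, 82.5 and 61.6 in *Gde2*KO, so that every 19-month library lay above every 4-month library while the genotypes overlapped. Its exons overlap *Olfr560* on the same strand.

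*Olfr558*, found in vessels, ranged from 5.50 to 13.7 at 4 months and from 0 to 24.9 at 19 months, and *Olfr544*, studied in liver and fat, from 1.25 to 8.36 and from 0 to 12.1. The 0 and the 24.9 of *Olfr558* are from the libraries of low depth, WT A and *Gde2*KO A, and the others lay at 2.81 to 8.65. The sperm receptor *Olfr16* was no member and had reads in 1 library, at 0.597. *Olfr1393*, known from the kidney tubule, was at 1.92 and 1.57 in WT replicates 1 and 2 at 4 months, 67.5 in WT replicate 3, and 51.1, 105 and 36.0 in *Gde2*KO.

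*Olfr464*, picked out after its values were seen, split in the same way, at 0, 1.21 and 39.4 in WT and 52.0, 31.6 and 51.8 in *Gde2*KO. These are the WT libraries whose striatal markers were low, and the part of tissue content in these levels was not tested. In bulk RNA fewer cells of a type and less RNA per cell cannot be told apart.

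The members are compared next with the rest of the machinery of smell. Olfactory marker protein (*Omp*) was at 4.83 to 20.2 normalized counts at 4 months and 0 to 14.4 at 19 months, and *Cnga2* at 1.37 to 5.01 and 3.51 to 26.7. *Rtp1*, a chaperone that brings odorant receptors to the surface, was at 4.12 to 24.2 and 31.6 to 93.7. *Rtp2* was at 0 to 8.47 over all 12 libraries. The sensory neuron markers *Stoml3* and *Cnga4* ranged from 0 to 48.6 and from 28.0 to 82.9, and only *Gng13*, which is expressed beyond the nose, was higher, at 380 to 1875.

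Signalling genes with wider roles in brain were expressed. *Gnal* was at 3827 to 12349, *Adcy3* at 1721 to 2184, *Lhx2*, a homeodomain factor of receptor choice, at 1645 to 2618 and *Ebf1* at 122 to 320 normalized counts. Of 16 genes of olfactory signal transduction, 15 were tested at 4 months and 16 at 19 months, and of 17 genes of receptor choice and trafficking 17 and 16. None was called at either age by limma, while at an unadjusted p under 0.05 the counts were 4 and 2 for transduction and 3 and 0 for choice and trafficking, against 10.6 and 6.91% of all genes at the 2 ages. Olfactory bulb markers summed to 312 to 542 across the libraries.

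Other chemoreceptor families were read to differing degrees. The same threshold was passed by 106 of 208 Vmn1r genes, 81 of 122 Vmn2r genes and 32 of 299 receptor genes named as pseudogenes, and by 0 of 16 Taar, 0 of 40 Tas2r and 0 of 5 Fpr-rs genes. Of the Tas1r genes, which encode sweet and umami taste receptors, 2 of 3 passed it. An untranslated part was annotated for 73.6% of Vmn1r, 91.8% of Vmn2r and 93.6% of Olfr genes, against 19.1% of the Olfr pseudogene symbols, 6.25% of Taar and 40.0% of Tas2r. It was counted only beside an annotated coding sequence, so a pseudogene without coding sequence counts as lacking it.

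The summed level of the members separated libraries more than genotypes. At 4 months it was 22506, 25316 and 25699 normalized counts in WT and 20077, 27716 and 20186 in *Gde2*KO. *Gde2*KO replicate 2 was thus the highest of the 6 and replicates 1 and 3 the lowest, and 213 of the 485 members had their highest value in replicate 2 while 229 had their lowest in replicate 3. The log2 ratio of the group means, *Gde2*KO over WT, was −0.11, within the SD of 0.20 between libraries of a group on that scale.

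Vmn1r genes and Olfr pseudogenes were also highest in *Gde2*KO replicate 2. Vmn1r genes summed to 5986, 8763 and 5357 in *Gde2*KO replicates 1 to 3 and Olfr pseudogenes to 1452, 2122 and 1370, whereas Vmn2r genes were level at 18100, 17988 and 18238. In WT the Vmn2r genes summed to 16253, 17041 and 17528, below every *Gde2*KO library. Transcripts annotated as retained introns took 2.57, 3.54 and 2.43% of all normalized counts in *Gde2*KO replicates 1 to 3 and 3.29 to 3.42% in WT. The part of unspliced RNA in the members' levels was not tested.

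At 19 months the members summed to 21170, 18607 and 17104 in WT and 18243, 16864 and 17935 in *Gde2*KO, and the groups overlapped. The log2 ratio was −0.10 with an SD of 0.12 between libraries. The members' median level was 18.6, 16.1 and 17.2 in WT and 16.6, 13.9 and 14.8 in *Gde2*KO. Retained introns took 4.27, 4.17 and 4.00% of all normalized counts in WT and 3.66, 3.98 and 3.92% in *Gde2*KO at this age, without overlap. Vmn2r genes summed to 15572, 14686 and 14635 in WT and to 13375, 12811 and 14187 in *Gde2*KO, also without overlap, but in the other direction from 4 months. Their part in the members' 19-month levels was not tested. In the shallow libraries, WT A and *Gde2*KO A, 71 and 125 members were at 0, against 2 to 6 in the others.

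**Figure D3:**
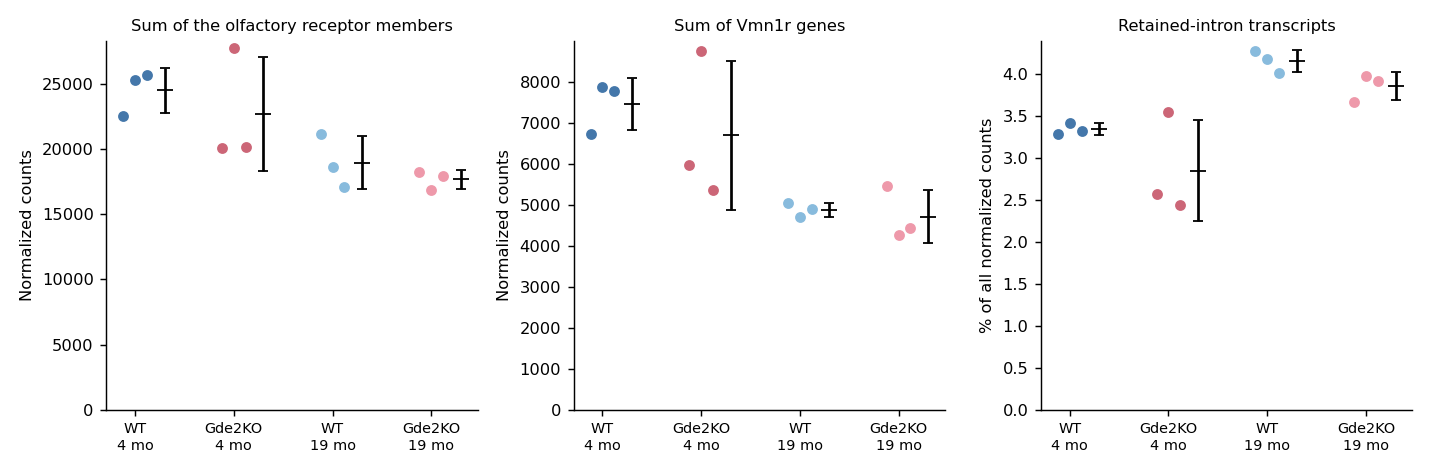
Summed normalized counts of the 485 members (left) and of Vmn1r genes (middle), and percent of all normalized counts in transcripts annotated as retained introns (right), with 1 point per library in the 4 groups and bars for mean ± SD (n = 3). *Gde2*KO replicate 2 at 4 months is the highest of the 6 libraries of that age in all 3 panels.

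The threshold was met by 414 Olfr genes in the 19-month libraries, of which 404 were members, 83.3% of the members and 97.6% of the 19-month list. In reads, 5 normalized counts was 1.07 in WT library A, 0.603 in *Gde2*KO library A and 5.91 to 7.12 in the others at 19 months. Levels at the 2 ages are set side by side without a test, since members were chosen at 4 months and age goes with library set. In WT 399 of 485 members had a lower mean at 19 than at 4 months, 82.3%, against 57.6% of all genes tested at 4 months, and the median log2 ratio was −0.58 against −0.08. In *Gde2*KO 397 were lower, 81.9% against 67.7%, with medians of −0.53 and −0.22.

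The comparison of genotypes at 4 months asked for early changes. All 485 members were tested, and limma called 0 of them at an adjusted p under 0.1 with a natural-log fold change above 0.5, against 24 of all 19035 genes, 0.126%. At an unadjusted p under 0.05 there were 16 members, 3.30%, against 10.6% of all genes. The median log2 fold change, *Gde2*KO over WT, was −0.23 in the members and 0.11 in all genes, and 377 members were below 0, 77.7% against 36.8%. Groups did not overlap for 38 members, 7.84% against 15.4%. These values come from the libraries that chose the members and are a description.

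The size of that shift moved with the *Gde2*KO library left out. The members' median was −0.15 without *Gde2*KO replicate 1 and −0.06 without replicate 3. Without replicate 2 it was −0.45, and 80 members then had an unadjusted p under 0.05. With TMM scaling, which moved the median of all genes to 0.01, the members' median was −0.32. Without WT replicate 3, 6 members were called, beside 1510 genes in all.

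*Olfr482* had the smallest unadjusted p at 4 months, at 0, 1.24 and 0.606 in WT and 8.31, 9.13 and 29.4 in *Gde2*KO, with an adjusted p of 0.286 from limma. It passed the rule through *Gde2*KO alone, so a difference was built into its selection. It shares 974 of its 31-mers with *Ramac*, which was at 2635 and 2998 normalized counts on average in WT and *Gde2*KO. At 19 months it was at 0 in all WT libraries and at 0, 7.18 and 11.7 in *Gde2*KO, too low to be tested.

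The 19-month libraries took no part in choosing the members. There 404 members passed the filter on low values and 81 did not, and 1 of the 404 was called by limma, against 18 of 18583 genes in all, 0.0969%, and 0.0323% called in the direction of higher in *Gde2*KO. At an unadjusted p under 0.05 there were 10 members, 2.48% against 6.91% of all genes. The median log2 fold change was −0.15 in the members and −0.02 in all genes, and 254 members were below 0, 62.9% against 55.4%. Groups did not overlap for 55 members, 13.6% against 14.2% of all genes. Without the filter all 485 were tested, with 0 called by limma, 16 at an unadjusted p under 0.05 and a median of −0.16.

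*Olfr149* (ENSMUSG00000062121.3, chr9:39700518-39707117, minus strand) was the member called, and it was higher in *Gde2*KO. At 19 months it was at 46.6, 34.2 and 41.5 normalized counts in WT and at 158, 198 and 120 in *Gde2*KO, so every *Gde2*KO library lay far above every WT library. Group means of 40.8 ± 6.21 and 159 ± 39.0 (SD, n = 3) gave 1.93 as the log2 fold change (SE 0.25, 95% interval 1.35 to 2.51) with an adjusted p of 0.0468 from limma. Over 14 alternatives the log2 fold change stayed between 1.76 and 2.11 while the adjusted p ran from 0.0397 to 0.409. The call was lost on leaving out any library other than *Gde2*KO C, with adjusted p of 0.109 to 0.182.

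At 4 months *Olfr149* was at 53.7, 66.7 and 78.5 in WT and 112, 125 and 120 in *Gde2*KO, again without overlap. Its log2 fold change was 0.86 (SE 0.21) with an adjusted p of 0.463 from limma over all genes. The difference between the ages, 1.07 (SE 0.33), had an adjusted p of 0.368. The part of tissue content, by the striatal and hippocampal markers above, in the level of *Olfr149* was not tested. All its counts lay on a spliced transcript of 2806 nt with 2 exons. Its other model, of 1030 nt with 933 nt of coding sequence, was at 0. On the TPM scale it was at 0.830 ± 0.132 in WT and 3.25 ± 0.795 in *Gde2*KO at 19 months.

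Of the 31-mers of *Olfr149*, 218 occur in transcripts of other genes. *Dtwd2* holds 92 of them, *Pphln1* 42, *Vmn2r11* 22 and *Strc*, which encodes stereocilin, 16. *Dtwd2* averaged 71.7 in WT and 71.9 in *Gde2*KO at 19 months, and *Pphln1* 1081 and 998, or −0.11 on the log2 scale, and neither passed the test. *Strc* was at 37.3, 23.8 and 37.5 in WT and 8.29, 8.43 and 12.5 in *Gde2*KO at 19 months, with a log2 fold change of −1.70 and an adjusted p of 0.581 from limma. At 4 months *Strc* was at 64.3, 69.7 and 25.7 in WT and 15.7, 15.1 and 22.8 in *Gde2*KO. Its log2 fold change there was −1.45 with an adjusted p of 0.463 from limma. At both ages it was therefore lower in the *Gde2*KO libraries, where *Olfr149* was higher, without overlap. Whether reads moved between them was not tested.

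**Figure D4:**
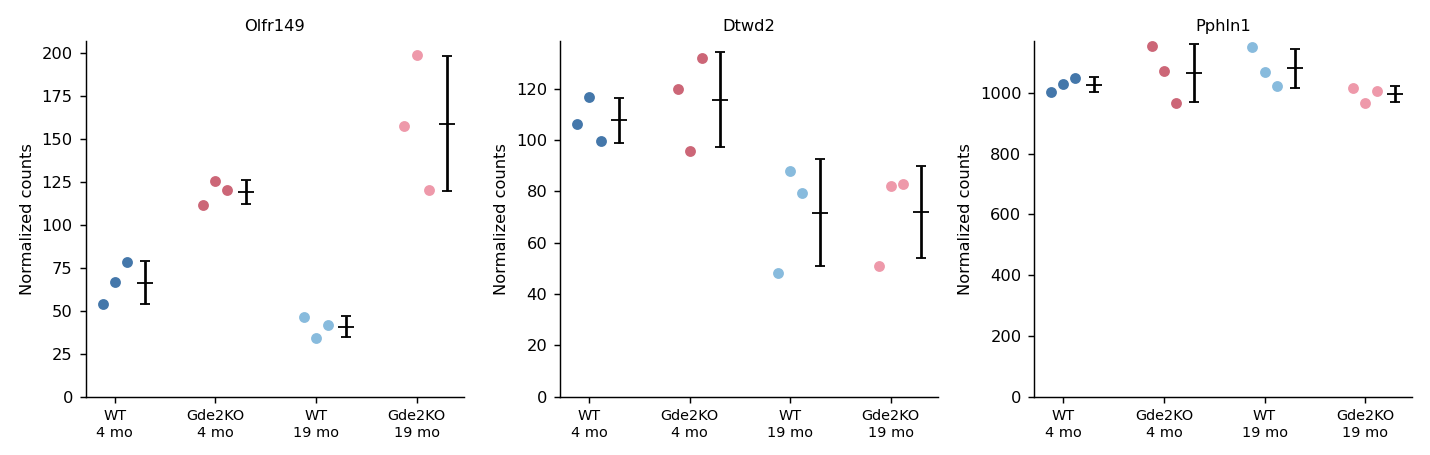
Normalized counts of *Olfr149* and of *Dtwd2* and *Pphln1*, the genes that share the most 31-mers with it, by group with 1 point per library and bars for mean ± SD (n = 3). *Olfr149* lies at 120 to 198 in *Gde2*KO and 34.2 to 46.6 in WT at 19 months, while *Dtwd2* overlaps between genotypes at both ages and *Pphln1* lies at 968 to 1017 in *Gde2*KO and 1023 to 1151 in WT at 19 months.

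The next smallest p-values at 19 months did not pass the adjustment. *Olfr152* (chr2:87779483-87784572) was at 407, 362 and 342 in WT and 255, 291 and 294 in *Gde2*KO, without overlap. Its log2 fold change was −0.40 (SE 0.12) with an adjusted p of 0.614 from limma. At 4 months it was at 268, 285 and 256 and at 218, 330 and 233, and there the genotypes overlapped.

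*Olfr323* was at 23.3, 23.7 and 26.1 in WT and 8.29, 11.3 and 10.1 in *Gde2*KO at 19 months, with a log2 fold change of −1.27 and an adjusted p of 0.668 from limma. *Olfr543* was at 9.32, 15.2 and 10.8 and at 0, 2.11 and 1.56, or −3.12 with an adjusted p of 0.664. Both were apart between genotypes at this age, yet 8.29 normalized counts in *Gde2*KO library A is 1 read. Without that library the log2 fold change of *Olfr543* was −2.38.

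*Olfr715* was at 25.6, 14.8 and 17.8 in WT and 0, 4.62 and 6.14 in *Gde2*KO, with a log2 fold change of −2.91 and an adjusted p of 0.697 from limma. The 0 is from *Gde2*KO library A, where 1 read was worth 8.29, and without that library the log2 fold change was −1.73. *Olfr715* shares 1769 31-mers with its near copy *Olfr715b*, so the split of reads between them is uncertain. Summed over both genes the values were 40.0, 21.5 and 24.2 in WT and 0, 9.40 and 13.8 in *Gde2*KO, still without overlap.

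Many members lie on the chromosome of the deleted gene. *Gdpd5* lies at chr7:99381414-99461877, and 83 members lie within 10 Mb of it, the nearest 3.01 Mb away. Of the 70 tested at 19 months, 0 were called by limma and 4 had an unadjusted p under 0.05, 5.71% against 2.48% of all members tested and 6.91% of all genes. Their median log2 fold change was −0.19. On the whole chromosome 87 of 105 members were tested, with 0 called, 5 at that p, 5.75%, and a median of −0.19.

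**Figure D5:**
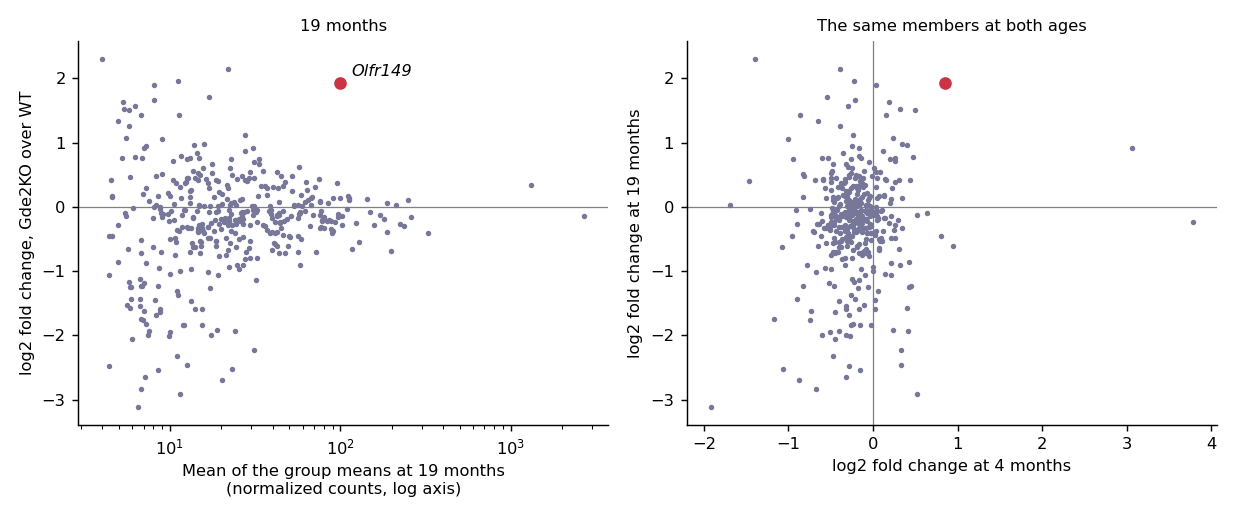
Log2 fold change of *Gde2*KO over WT at 19 months for the 404 members tested, against mean level in normalized counts on a log axis (left) and against the log2 fold change of the same members at 4 months (right). *Olfr149*, in red, stands out at 1.93 among members of its level, and the spread widens toward low counts.

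Both ages gave the same sign for 234 of the 404 members tested at each, 201 lower and 33 higher. Most members were lower at each age, 77.7% of 485 and 62.9% of 404, so this count alone does not show agreement between ages. Genotypes did not overlap at either age for 6 of the 404 members, 1.49%, against 2.23% of all genes tested at both ages. *Olfr149* was higher at both, *Olfr1221*, *Olfr1423*, *Olfr1417* and *Olfr788* were lower at both, and *Olfr307* turned. Only *Olfr149* of these was called, at 19 months.

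*Olfr1221* was at 111, 134 and 135 in WT and 97.9, 109 and 71.4 in *Gde2*KO at 4 months, and at 111, 101 and 89.5 and at 84.6, 85.7 and 84.2 at 19 months. These differences were small, with log2 fold changes of −0.46 and −0.24.

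The test of whether genotype acted differently at the 2 ages covered 449 members. It called 0 of them by limma at an adjusted p under 0.1, against 9 of 18731 genes, 0.048%, and 10 members had an unadjusted p under 0.05, against 12.9% of all genes. A part of that contrast uses the libraries that chose the members.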

How the data were processed

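The members and gene lists were chosen with earlier results of these data known. The authors quantified paired reads of polyA libraries on the GRCm38 transcriptome with Kallisto and normalized them with Sleuth. The deposited signal values are estimated transcript counts divided by a library size factor, with a second table in TPM. Per the labels the tools were bcl2fastq 2.17, Trimmomatic 0.36 and STAR 2.5.2b. Trimming and STAR served the study's splicing analysis, which is not used here. Transcripts were summed to 36047 genes. The 1673 of 118489 transcripts without a gene took 0.541 to 0.605% of the normalized counts. Fold changes are on the log2(value + 0.5) scale, so those of low genes depend on the added value, above all where a library is at 0. For *Olfr715* at 19 months the log2 fold change was −3.73, −2.91 and −1.56 with 0.1, 0.5 and 5 added. Depth was estimated by taking the commonest low nonzero transcript value of each library as 1 read.

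Because size-factor-scaled values are not counts, log2(value + 0.5) was tested with limma 3.58.1, two-sided, with an intensity trend, separately at each age, on genes at 5 or more in 47% of libraries. A call needed a natural-log fold change above 0.5 and a p, adjusted by Benjamini-Hochberg, under 0.1. The scripts were tested on simulated data. Positions, structure and sequences are from GENCODE on GRCm38, whose transcript identifiers the files use. 31-mers were compared on both strands. Named members are the 10 of highest mean TPM, those called, the 5 of smallest 19-month p, 3 on each side of the threshold, and receptors known outside the nose. *Olfr464*, *Olfr1221*, *Olfr1423*, *Olfr1417*, *Olfr788*, *Olfr307*, *Olfr482*, *Olfr212* and *Olfr1281* were named after their values were seen. Other pseudocounts, filters, scaling and left-out libraries were tried.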

Additional observations from a re-analysis of the deposited data

Results flagged for a closer look

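*Olfr307* (chr7:86332176-86337586) was lower in *Gde2*KO at 4 months and higher at 19 months, without overlap but by a narrow margin. The nearest values at 4 months were 18.2 in WT and 17.8 in *Gde2*KO, where 1 read was worth 0.605 and 0.687. Those at 19 months were 23.7 in WT and 25.0 in *Gde2*KO, where 1 read was worth 0.847 and 0.78. It was at 31.1, 18.2 and 22.3 normalized counts in WT and 11.3, 17.8 and 11.1 in *Gde2*KO at 4 months, and at 23.4, 23.7 and 18.0 and at 41.5, 26.7 and 25.0 at 19 months. The difference between the ages was 1.29 on the log2 scale (SE 0.51), with an unadjusted p of 0.026 and an adjusted p of 0.372 over all genes from limma, so it failed the adjustment. The value of 41.5 comes from the shallowest library.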

How the results depend on the processing

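The number of members was 539 and 384 at thresholds of 3 and 10, and 457 without transcripts overlapping an exon of another gene. At 4 months 0 members were called under every alternative run except without WT replicate 3, with a range of 0 to 6 over left-out libraries. With the replicate number as a block 0 members were called. Same-numbered libraries deviated together with correlations of 0.06, 0.01 and −0.05, so the numbers were not taken as pairs. No paired analysis was possible at 19 months because the columns carry no number. The 19-month count of 1 fell to 0 with no filter, with the deposited TPM, with no intensity trend and without both libraries of low depth, and ranged from 0 to 1 over left-out libraries. The adjusted p of *Olfr149* was then 0.178, 0.409, 0.295 and 0.113. The interaction count ranged from 0 to 2, the 2 coming without WT replicate 3 of 4 months. The log2 ratio of summed levels ranged from −0.28 to −0.03 at 4 months and from −0.17 to −0.01 at 19 months over left-out libraries. Of the named members at 19 months, direction turned without both libraries of low depth for *Olfr1023* (0.0192), *Olfr287* (0.0684), *Olfr57* (−0.0357) and *Olfr1348* (−0.36), for *Olfr1348* also with the deposited TPM (−0.48), and over left-out libraries *Olfr1348* ranged from −0.25 to 0.23 and *Olfr648* from −0.32 to 0.70. The cause was not tested. Depth limits the 2 shallow libraries, where a member under 1 read is at 0.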
